A study of Mus musculus with 21 samples.

Results

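The genes described here are the Wnt ligands, their Frizzled and Lrp receptors, the secreted antagonists of the pathway and 4 genes that respond to it. They were taken as the entries with the symbols Wnt, Fzd and Sfrp with any number, Dkk1 to Dkk4, Lrp5 or Lrp6, together with Frzb, Wif1, Axin2, Lef1, Tcf7 and Nkd1. This gave 45 genes, namely 19 ligands, 12 receptors, 10 antagonists and 4 response genes. They were 45 of 40770 entries in the linc-Brn1b table and 45 of 42760 in each of the Peril and Fendrr tables.

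RNA-Seq was carried out on tissues of mice in which a long intergenic noncoding RNA (lincRNA) had been replaced by a lacZ cassette, and on wild type counterparts. Knockout and wild type were compared in the whole brain at E18.5 for Peril, which the labels call lincSox2, in the lung at E14.5 for Fendrr, labelled lincFoxf1a, and for linc-Brn1b in the telencephalon at E13.5 and at E15.5 and in the whole brain at P7. All knockouts were homozygous, were made in VGF1 hybrid embryonic stem cells and were backcrossed once to C57BL/6J, and the deletion and the reporter cassette are present in every cell. Each of the 10 groups had 2 libraries, apart from the linc-Brn1b knockout at E15.5 with 3 by the labels, for 21 in all, and the tables give 1 pooled expression value per group. There is thus no replicate spread and no test in what follows, the depth behind each value is unknown, and every difference is a description of these pooled values.

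Wnt proteins are secreted, lipid-modified signals that bind a Frizzled receptor and, in the canonical branch, the co-receptor Lrp5 or Lrp6. Binding stops the destruction of beta-catenin, which then enters the nucleus and switches on target genes together with factors of the Tcf and Lef family. In the embryo the pathway patterns the forebrain, keeps neural progenitors dividing, and directs growth and branching of the lung. Sfrp proteins, Frzb and Wif1 bind the ligands outside the cell, whereas Dkk1 blocks the co-receptor.

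Expression was measured in FPKM, a count of fragments scaled to transcript length and library size, which allows levels of different genes to be set side by side. Differences are given as log2(FPKM + 1), knockout minus wild type, and a gene was counted as past the fold when this difference was at least 0.5 in size and the mean of both groups at least 1 FPKM. The share of all entries past the fold in the same comparison is given as the background. The 1 added to each value understates differences of weakly expressed genes. Because the tissues were sequenced in bulk, fewer cells of a type and less RNA per cell cannot be told apart.

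Certain properties of the groups apply to all comparisons. The linc-Brn1b entry was at 1.60, 2.50 and 0.799 FPKM in wild type at E13.5, E15.5 and P7 and was listed at 0 in all 3 knockout groups. In the Fendrr lung the entry linc-Cox4nb-4 was at 38.4 FPKM in wild type against 0.0450 FPKM in knockout. In the Peril brain the entry linc-Atp11b-4 overlaps the deleted locus only in part. It was at 0.0109 FPKM in wild type against 4.65 FPKM in the group labelled knockout, a direction opposite to that of the entries in the other strains. Because the overlap is partial, the entry cannot settle whether that label is right. For the Peril and Fendrr strains the deposited column names give both groups but not which value belongs to which. The order found in the linc-Brn1b strain was used, and directions in the Peril strain rest on it. Peril itself was also assessed in the study by RT-PCR in E18.5 brain, where the paper reports its deletion, and those data were not analysed here. The summed level of 4 Y-linked genes was at most 0.0357 FPKM in one genotype and at least 21.0 FPKM in the other in each of the 5 comparisons, with the Y-linked signal in wild type for the Fendrr lung and the E13.5 telencephalon and in knockout for the other 3. Genotype and sex therefore cannot be told apart in any of them. The labelled tissues bore their markers, with Sftpc, the lung surfactant protein, at 819 FPKM in wild type lung and at most 0.221 FPKM in wild type brain, and Emx1, a transcription factor of the dorsal telencephalon, at 47.97 FPKM in wild type E13.5 telencephalon and 0.0347 FPKM in wild type lung.

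All 45 genes were found in the GENCODE annotation of mm9 (NCBIM37) on the chromosome given in the tables, with overlapping spans. Fzd10 is annotated there as a pseudogene, and its span in the tables, chr5:129083842-129110850, is shared with 3 other entries, among them 5930412G12Rik. Tcf7 lies at chr11:52065873-52096681 on the minus strand, Sfrp1 at chr8:24521974-24560104 on the plus strand and Sfrp2 at chr3:83570243-83578238 on the plus strand, all as protein-coding genes. In the linc-Brn1b table, 14 of the 45 genes shared part of their span with another entry, so that reads there could have been divided between them. Tcf7, Fzd7 and Sfrp2 were among these, whereas Sfrp1 and Wnt9a were not. Dkk3 shared its span in every table with an entry named Dkk-3, whose level is not given here. Several ligand genes are close neighbours. Wnt1 and Wnt10b are 5713 bp apart on chromosome 15, Wnt6 and Wnt10a 6699 bp on chromosome 1, Wnt3a and Wnt9a 16178 bp and Wnt3 and Wnt9b 24353 bp on chromosome 11. Neighbours were not at like levels, as in the E13.5 wild type telencephalon Wnt3 was at 0.524 FPKM and Wnt9b at 0.0179 FPKM.

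Promoter windows from RefSeq (GRCm38.p6), from 250 bases before to 50 bases after an annotated gene start, matched 31 of the 45 genes with 38 windows. Genes without a window were Dkk3, Dkk4, Fzd2, Fzd3, Fzd6, Fzd8, Lrp5, Lrp6, Sfrp1, Sfrp4, Wnt10a, Wnt5a, Wnt7b and Wnt8a. The windows were searched on both strands for CTTTGAT, the core sequence bound by Tcf and Lef factors, whose reverse complement is ATCAAAG. It occurred in 2 of the 38 windows (5.26%) and in 1225 of all 32851 windows (3.73%). The 2 windows belong to Wnt5b and Wnt11. A stretch of 60 bases of each is shown, at chr6:119449425-119449484 on the minus strand for Wnt5b and chr7:98835034-98835093 on the plus strand for Wnt11, with the motif in capitals, because these were the only matches.
Wnt5b: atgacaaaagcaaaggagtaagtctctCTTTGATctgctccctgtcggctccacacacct
Wnt11: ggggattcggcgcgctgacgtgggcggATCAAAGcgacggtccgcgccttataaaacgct
For 4 of the 6 genes past the fold in a knockout comparison, the 120 bases before an annotated start are shown. Sfrp1 had no window, and the stretch before the start of Fzd10 lies within annotated protein-coding transcripts and is not shown, and the same holds for the other of the 2 starts of Tcf7. The stretches shown lie at chr3:83766201-83766320 (Sfrp2), chr1:59482027-59482146 (Fzd7) and chr11:59306810-59306929 (Wnt9a) on the plus strand and at chr11:52282596-52282715 (Tcf7) on the minus strand, and contain no CTTTGAT on either strand, which says nothing about sites elsewhere.
Sfrp2: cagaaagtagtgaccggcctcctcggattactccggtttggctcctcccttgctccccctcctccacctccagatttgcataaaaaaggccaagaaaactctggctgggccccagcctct
Fzd7: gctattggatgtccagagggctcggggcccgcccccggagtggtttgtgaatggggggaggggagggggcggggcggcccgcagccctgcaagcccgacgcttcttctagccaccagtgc
Wnt9a: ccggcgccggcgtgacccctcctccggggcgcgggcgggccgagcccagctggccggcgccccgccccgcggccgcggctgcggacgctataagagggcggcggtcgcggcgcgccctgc
Tcf7: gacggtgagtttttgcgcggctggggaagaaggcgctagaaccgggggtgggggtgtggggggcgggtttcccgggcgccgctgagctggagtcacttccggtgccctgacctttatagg

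Among the ligands, brain and lung were each led by a few genes, and brain and lung differed in which. Wnt7b was the highest ligand in every brain group, at 17.5 FPKM in wild type against 18.8 FPKM in the knockout-labelled group of the Peril brain, and at 36.6, 42.01 and 13.01 FPKM in linc-Brn1b wild type at E13.5, E15.5 and P7. The corresponding linc-Brn1b knockout levels of Wnt7b were 32.2, 36.8 and 13.1 FPKM. Wnt7a, its closest relative, was at 8.58 and 7.63 FPKM in the Peril brain and at 14.1, 12.4 and 5.24 FPKM in the linc-Brn1b wild type, and at P7 Wnt4 was above it at 5.92 FPKM. Wnt7b supplied between 31.7% of the summed ligand level, in the P7 knockout brain, and 62.3%, in the E15.5 wild type telencephalon. In the lung Wnt2, a mesenchymal ligand needed for lung specification, was highest at 32.6 FPKM in wild type against 37.1 FPKM in knockout, but was at most 0.907 FPKM in any brain group. Wnt7b was second in lung with 20.2 and 22.0 FPKM, whereas Wnt7a reached only 0.452 and 0.426 FPKM. Wnt5a, the main noncanonical ligand, ranked 3 among the ligands of each table and was at similar levels in all tissues, from 4.09 FPKM in P7 knockout brain to 7.84 FPKM in knockout lung. Wnt11 was at 5.56 and 6.22 FPKM in lung and at most 0.324 FPKM in brain. Wnt8a was listed at 0 in 9 groups and at 0.00857 FPKM in the E13.5 knockout, and Wnt1, Wnt9b, Wnt10a, Wnt10b and Wnt16 were at most 0.573 FPKM in every group. Levels in different tables stand side by side only, since each table was normalized on its own.

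Receptors were more evenly expressed than ligands. Between 9 and 11 of the 12 receptor genes were at or above 1 FPKM in each group, against 6 to 9 of the 19 ligands. Fzd3, which guides axons and neuronal migration in the forebrain, was highest in every brain group, at 12.2 and 11.2 FPKM in the Peril brain, 30.4 and 31.8 FPKM at E13.5, 16.8 and 16.8 FPKM at E15.5, and 14.7 and 14.9 FPKM at P7, wild type first in each case. In lung Fzd3 was at only 2.89 and 3.10 FPKM, and Fzd1 (30.6 and 32.7 FPKM), Fzd2 (28.02 and 29.2 FPKM) and Fzd7 (23.8 and 26.4 FPKM) led by the mean of both groups, Lrp5 being above Fzd7 in wild type. Fzd9, conversely, was at 4.56 to 11.4 FPKM in the brain groups and at 0.423 and 0.491 FPKM in lung. The co-receptor Lrp6 ranged from 6.31 FPKM in P7 wild type brain to 19.2 FPKM in knockout lung. Lrp5 ranged from 2.23 FPKM in P7 wild type brain to 24.3 FPKM in wild type lung.

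By the mean over its groups, Sfrp1, Sfrp2 and Dkk3 were the 3 highest antagonists of each table, although Frzb at 5.03 FPKM was above Sfrp1 in the P7 knockout. Sfrp1 was the highest of all 45 genes in the E13.5 telencephalon, at 72.1 FPKM in wild type against 67.5 FPKM in knockout, and supplied 69.1% and 70.4% of the summed antagonist level there. In lung Sfrp2 led, at 40.8 FPKM in wild type against 64.9 FPKM in knockout. The ratio of Sfrp1 to Sfrp2 was 4.13 in the E13.5 wild type telencephalon and 0.442 in wild type lung. Dkk3, a divergent Dkk protein whose action on Wnt signaling is less clear than that of Dkk1, was the leading antagonist at P7 with 30.2 and 25.3 FPKM. Dkk1 itself was at most 0.207 FPKM in any group, and Dkk4 at most 0.0295 FPKM.

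Of the 4 response genes, Axin2, which feeds back on beta-catenin destruction and serves as a general readout of the canonical pathway, ranged from 5.35 FPKM in P7 wild type brain to 15.1 FPKM in knockout lung. Nkd1, another feedback inhibitor, ranged from 4.68 to 11.1 FPKM over all 10 groups. Lef1 ranged from 2.25 FPKM in P7 wild type brain to 10.9 FPKM in knockout lung. Tcf7, which encodes Tcf1 and is also prominent in T lymphocytes, was at 62.3 and 64.1 FPKM in lung and between 2.90 and 6.06 FPKM in the brain groups. Among T lymphocyte markers, lung had Cd3g at 6.08 and 7.24 FPKM, Lck at 5.83 and 7.13 FPKM and Rag1 at 2.14 and 2.51 FPKM. Cd3e was at 0.962 and 0.881 FPKM there, Cd4 at 0.222 and 0.237 FPKM and Cd8a at 0.0237 and 0.0115 FPKM. The part of such cells in the lung level of Tcf7 was not tested.

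**Figure D1:**
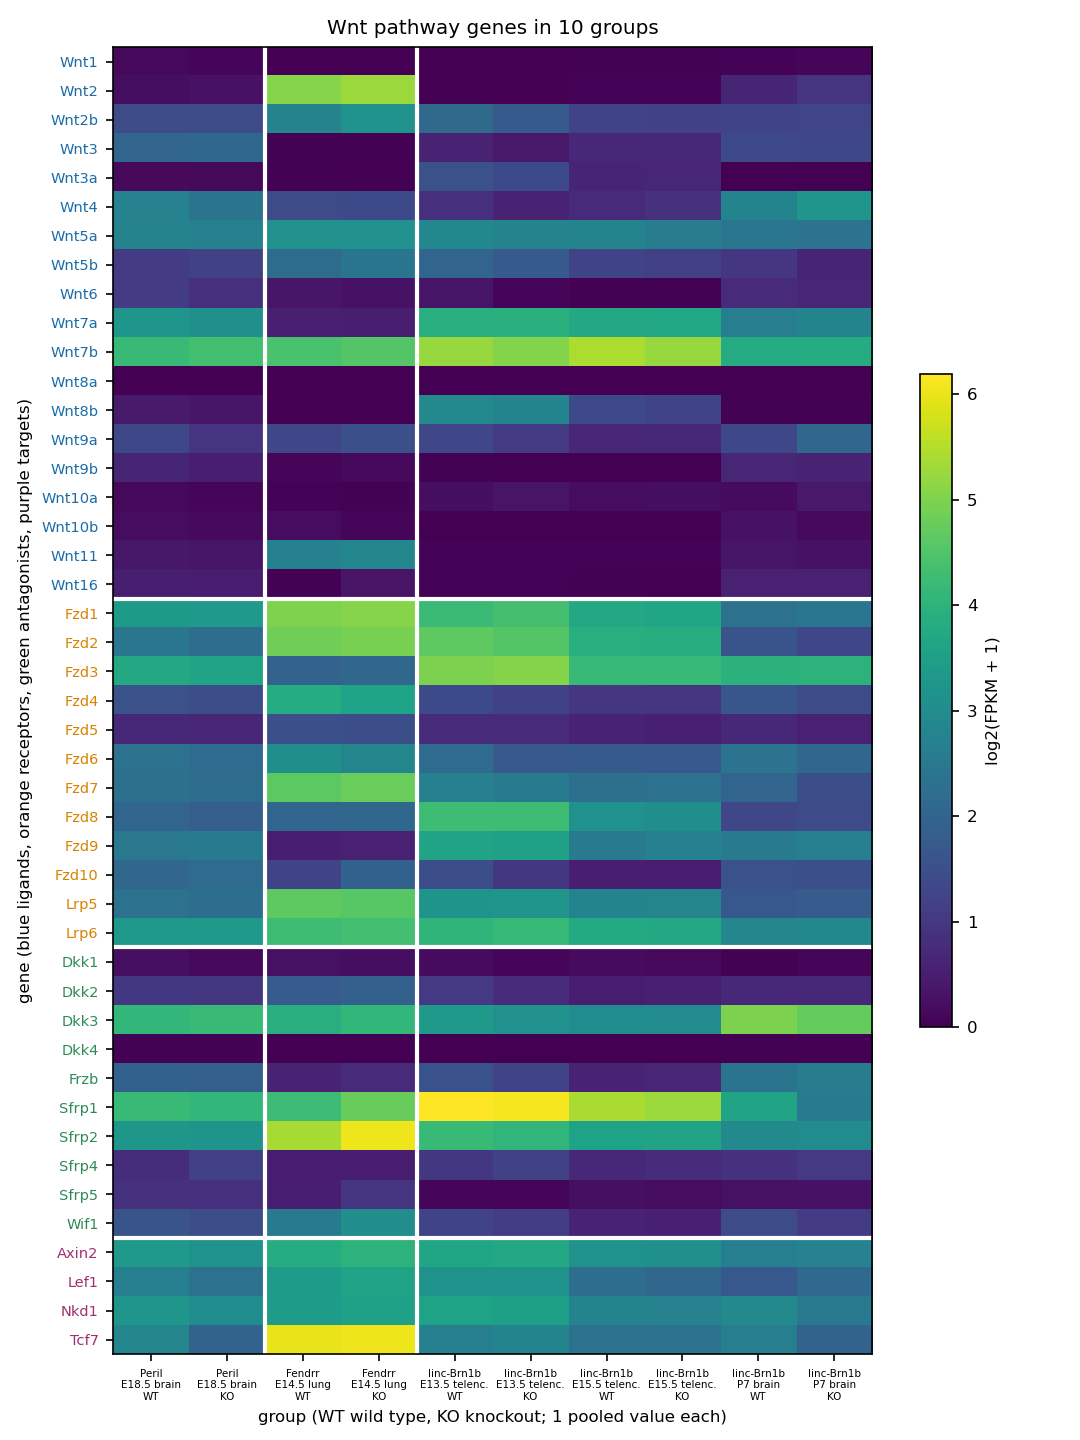
Heat map of log2(FPKM + 1) of the 45 genes (rows, coloured by role) in the 10 groups (columns, wild type and knockout of each strain and age, 1 pooled value each), with white lines between roles and between tables. Wnt7b, Fzd3 and Sfrp1 are bright across the brain columns, and Wnt2, Fzd1, Sfrp2 and Tcf7 in the lung columns.

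In the E18.5 brain of the Peril strain, Tcf7 was the one gene past the fold. It was at 6.06 FPKM in wild type against 2.90 FPKM in the group labelled knockout, a difference of -0.86 in log2(FPKM + 1). Of 14405 entries with a mean of at least 1 FPKM, 1.06% were lower and 1.54% higher past the same fold. Of the 45 genes, 28 passed this minimum, and 1 of these 28 was lower and 0 were higher. The other 3 response genes were also below wild type, with Lef1 at 5.42 and 3.93 FPKM (-0.38), Nkd1 at 8.43 and 7.01 FPKM (-0.24) and Axin2 at 9.14 and 8.01 FPKM (-0.17). The summed level of the 4 was 29.05 FPKM in wild type against 21.9 FPKM in the group labelled knockout. The ratio of Tcf7 to Lef1, which scaling of the libraries does not alter, was 1.12 and 0.736.

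Ligands, receptors and antagonists of the Peril brain lay closer to wild type. Among the 8 ligands past the minimum, differences ranged from -0.39 for Wnt9a, at 1.52 and 0.930 FPKM, to 0.14, with 4 above and 4 below 0. Wnt4, a ligand expressed in several embryonic organs, was at 5.68 FPKM in wild type against 4.17 FPKM in the group labelled knockout (-0.37). Among 11 receptors 8 were below 0, with a range from -0.21 to 0.11. Sfrp1 was at 17.4 and 16.2 FPKM, Sfrp2 at 8.74 and 8.20 FPKM and Dkk3 at 16.3 and 17.5 FPKM. Over the 28 genes the median difference was -0.10 with 20 below 0, beside a median of 0.0031 and 50.8% above 0 over all entries.

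Markers of other tissue also differed in the Peril brain. Of the 3 cerebellar markers past the minimum, only Pcp2 was past the fold. Pcp2, a Purkinje cell gene, was at 6.34 and 2.39 FPKM, and the summed level of the 5-gene list was 49.5 FPKM in wild type against 41.4 FPKM in the group labelled knockout, with Gabra6 at 0.0191 and 0.0353 FPKM. The summed level of 7 choroid plexus genes was 849 and 586 FPKM, 2 of 6 past the minimum being lower past the fold, and that of 4 erythroid genes was 93.6 and 56.2 FPKM. Every listed endothelial gene was below wild type but short of the fold, from -0.17 for Tek to -0.33 for Flt1. The listed meningeal genes were also below wild type without reaching the fold, Aldh1a2 being lowest (-0.43), apart from Ogn, which was above it (0.45). The T lymphocyte list, which bears on Tcf7, had 1 of 6 genes past the minimum and summed to 4.95 and 4.84 FPKM. The part of these tissues in the differences of Tcf7 and of the other response genes was not tested.

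In the E14.5 lung of the Fendrr strain, 3 genes were past the fold and all were higher in knockout, namely the antagonists Sfrp1 and Sfrp2 and the receptor Fzd10. Sfrp2 was at 40.8 FPKM in wild type against 64.9 FPKM in knockout, a difference of 0.66. Sfrp1 was at 18.01 and 25.9 FPKM, a difference of 0.50 that lay at the fold itself. Fzd10 was at 1.40 and 2.80 FPKM, a difference of 0.66. These were 3 of 28 genes past the minimum, and 1.8% of 13979 entries were higher past the fold and 1.23% lower. Wif1, a further binder of Wnt ligands, was just short of the fold at 4.86 and 7.19 FPKM (0.48). Dkk3, at 13.97 and 16.3 FPKM (0.21), and Dkk2, at 2.41 and 2.70 FPKM (0.12), completed the 5 antagonists past the minimum, all of which were above 0. The summed antagonist level was 81.6 FPKM in wild type against 119 FPKM in knockout. The ratio of Sfrp1 to Sfrp2 was 0.442 and 0.399, so both genes differed by a similar factor.

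The other roles differed less in the lung. Among 8 ligands 7 were above 0, with a median of 0.16 and a highest difference of 0.39 for Wnt2b, at 5.83 FPKM in wild type against 7.95 FPKM in knockout. Wnt2 was at 32.6 and 37.1 FPKM (0.18). The receptors ranged from -0.24, for Fzd4 at 13.3 and 11.1 FPKM, upwards, and their summed level was 155 and 159 FPKM. The 4 response genes were between 0.04 and 0.18 above wild type, with Tcf7 at 62.3 and 64.1 FPKM and Axin2 at 13.2 and 15.1 FPKM. Over all 28 genes the median was 0.13 with 5 below 0, beside a median of 0.0040 over all entries.

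Markers of several other tissues were higher in the knockout lung as well. All 11 cardiac muscle genes past the minimum, of 12 listed, were higher past the fold, and the list summed to 387 FPKM in wild type against 1178 FPKM in knockout, with Nkx2-5, a defining cardiac factor, at 0.515 and 1.20 FPKM. All 5 skeletal muscle genes past the minimum, of 8 listed, were also higher, with sums of 21.3 and 46.7 FPKM. Mesothelial genes summed to 45.2 and 62.7 FPKM, with Wt1 at 5.21 and 7.70 FPKM. Dcn, Lum and Aldh1a2, listed as meningeal genes and expressed in connective tissue generally, were at 135, 40.2 and 23.0 FPKM in wild type and 192, 61.2 and 37.3 FPKM in knockout. Their list summed to 256 and 360 FPKM with 3 of 4 genes past the minimum higher. In contrast, endothelial genes summed to 373 and 311 FPKM, erythroid genes to 1179 and 655 FPKM, and smooth muscle genes to 413.5 and 395.6 FPKM. Acta2 made up 250 and 242 FPKM of the smooth muscle sum. Within that list Myh11 was lower past the fold at 28.35 and 17.35 FPKM (-0.68), Actg2 differed by -0.28 and Des by 0.37. Epithelial genes summed to 1311 and 1331 FPKM, of which Sftpc made up 819 and 871 FPKM, while Nkx2-1, Sftpb, Epcam and Cdh1 were below wild type by differences of -0.16 to -0.42. Genes of the lung mesenchyme summed to 554 and 629 FPKM, with Tbx4 at 63.7 FPKM in both groups, Col1a1 at 375 and 461 FPKM and Foxf1a lower past the fold at 36.6 and 24.8 FPKM. For Foxf1a the paper reports no significant change in the knockout lung. Whether the Sfrp1, Sfrp2 and Fzd10 differences follow the makeup of the dissected tissue was not tested.

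In the E13.5 telencephalon of the linc-Brn1b strain, 0 of the 29 genes past the minimum were past the fold, while 7.14% of 13507 entries were lower in knockout and 2.72% higher. The lowest differences were those of the receptors Fzd10, at 1.79 FPKM in wild type against 1.01 FPKM in knockout (-0.48), and Fzd6, at 3.51 and 2.30 FPKM (-0.45). Wnt2b, a ligand of the cortical hem and other midline tissue, was at 3.40 and 2.38 FPKM (-0.38) and Frzb at 1.95 and 1.39 FPKM (-0.30). Of the ligands 7 of 8 were below 0, with a median of -0.17, whereas 3 of the 4 response genes were above 0, with Axin2 at 11.6 and 12.4 FPKM. Over the 29 genes 20 were below 0 and the median was -0.12, beside a median of 0.06 over all entries. Meningeal genes summed to 32.8 and 16.8 FPKM with 4 of 6 lower past the fold, endothelial genes to 71.1 and 48.3 FPKM with 3 of 8 lower, and erythroid genes to 124 and 45.8 FPKM, and their part in these differences was not tested.

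In the E15.5 telencephalon the 2 genotypes were closest. None of the 22 genes past the minimum reached the fold (0 higher, 0 lower), and 0.251% of 13521 entries were higher and 0.34% lower. Differences ran from -0.20 for Lef1, at 3.72 and 3.10 FPKM, to 0.14 for Fzd9, at 4.94 and 5.57 FPKM. All 6 ligands were below 0, between -0.03 and -0.19, the lowest being that of Wnt7b at 42.01 and 36.8 FPKM. Sfrp1 was at 41.6 and 37.6 FPKM (-0.14). The median over the 22 genes was -0.03. Choroid plexus genes nevertheless summed to 251 FPKM in wild type against 5.90 FPKM in knockout at this age, with Ttr at 231 and 1.39 FPKM.

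In the P7 brain of the linc-Brn1b strain, 4 genes were past the fold, the most of the 5 comparisons. Sfrp1 was at 11.2 FPKM in wild type against 4.91 FPKM in knockout, a difference of -1.05. Tcf7 was at 5.28 and 2.93 FPKM (-0.68) and Fzd7, a receptor known from stem and progenitor cells, at 3.08 and 1.82 FPKM (-0.53). Wnt9a was the only one higher, at 1.54 and 3.10 FPKM (0.69). These were 3 lower and 1 higher of 27 genes past the minimum, and 3.29% of 14175 entries were lower and 3.34% higher.

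In the P7 brain Sfrp2 and Lef1, relatives of Sfrp1 and Tcf7, were not lower, while Fzd2, a relative of Fzd7, was at 2.06 and 1.51 FPKM (-0.29). Sfrp2 was at 6.63 FPKM in wild type against 6.92 FPKM in knockout (0.05), and the ratio of Sfrp1 to Sfrp2 was 1.69 in wild type and 0.709 in knockout. Lef1 was at 2.25 and 3.33 FPKM (0.41), opposite in sign to Tcf7, and the ratio of Tcf7 to Lef1 was 2.35 and 0.880. Axin2 was at 5.35 and 5.74 FPKM (0.09) and Nkd1 at 6.55 and 4.68 FPKM (-0.41). Among the ligands Wnt4 was at 5.92 and 8.40 FPKM (0.44), short of the fold. The median over the 27 genes was 0.03 with 12 below 0, beside a median of 0.01 over all entries.

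The P7 groups also differed in markers of the hindbrain and of glia. All 3 cerebellar genes past the minimum were lower past the fold, with Pcp2 at 14.7 and 1.48 FPKM and Barhl1, a granule cell factor, at 4.25 and 0.939 FPKM. The 5-gene list summed to 58.0 FPKM in wild type against 27.4 FPKM in knockout, with Atoh1 at 0.507 and 0.0148 FPKM. Midbrain and hindbrain genes summed to 7.04 and 2.04 FPKM, genes of radial glia to 1164 and 703 FPKM, of the oligodendrocyte lineage to 511 and 328 FPKM, and of the choroid plexus to 461 and 314 FPKM. The 5 telencephalic genes summed to 60.9 and 73.05 FPKM and neuronal genes to 2660 and 2603 FPKM. The neuronal genes did not all go the same way. Tubb3 was at 1072 and 888 FPKM and Stmn2 at 1057 and 1034 FPKM, and these made up most of the sum. Snap25 was higher in knockout at 262 and 348 FPKM, as were Syt1 at 217 and 277 FPKM and Rbfox3 at 52.4 and 57.3 FPKM. The T lymphocyte list summed to 4.92 and 5.00 FPKM, of which Lck, its only gene past the minimum, made up 4.30 and 3.84 FPKM. Cd4 was at 0.464 and 1.03 FPKM. The part of the tissue sampled in the differences of Sfrp1, Tcf7, Fzd7 and Wnt9a was not tested.

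**Figure D2:**
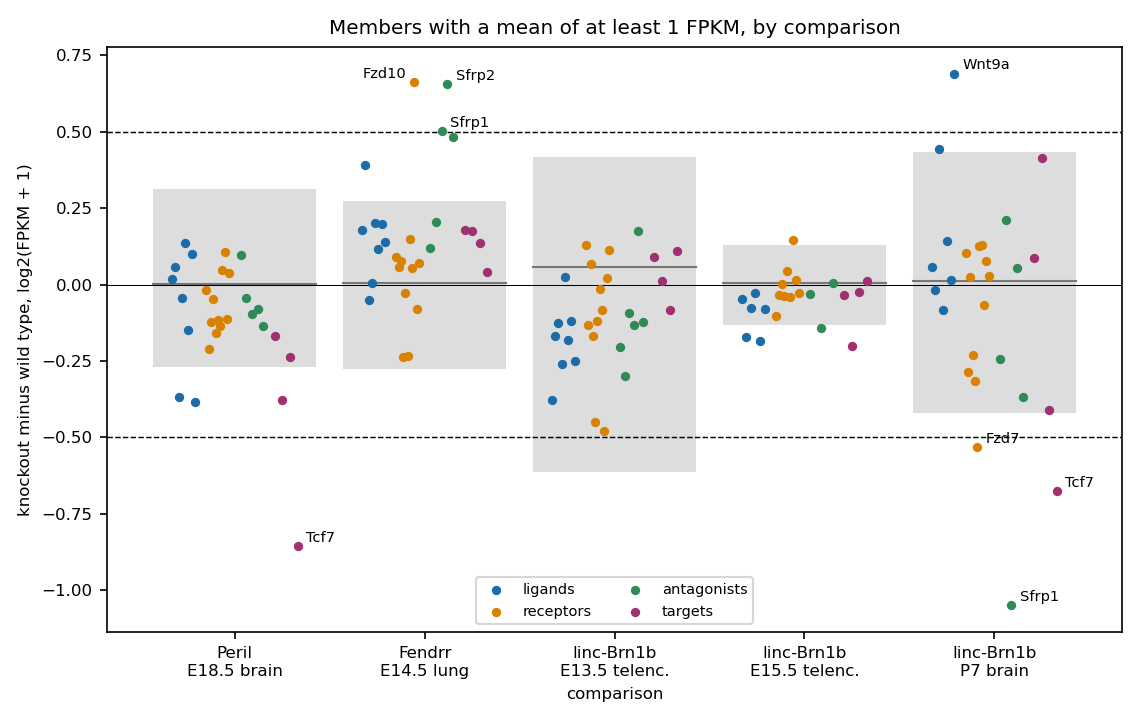
Knockout minus wild type difference in log2(FPKM + 1) of each gene with a mean of at least 1 FPKM, by comparison. Grey boxes span the 5th to 95th percentile of all entries with a line at their median, and dashed lines mark the fold of 0.5. In the Peril brain, Tcf7 alone is labelled, at -0.86, the labelled genes of the lung are all above 0, and in the P7 brain Sfrp1 is the lowest at -1.05.

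Of the 6 genes past the fold in any comparison, 2 were past it in more than 1. Tcf7 was lower in the linc-Brn1b P7 knockout brain, and in the Peril brain in the group labelled knockout, whose label was not checked. It was near wild type in the E13.5 telencephalon at 5.42 and 5.92 FPKM, in the E15.5 telencephalon at 4.07 and 4.11 FPKM, and in lung. Sfrp1 was higher in the Fendrr lung and lower in the linc-Brn1b P7 brain, while at E13.5 and E15.5 its differences were -0.09 and -0.14. Wnt9a was higher at P7 and below wild type in the Peril brain (-0.39), without reaching the fold there. Fzd10 was at 3.14 and 3.45 FPKM in the Peril brain and at 1.96 and 1.83 FPKM in the P7 brain. Fzd7 was at 3.91 and 3.53 FPKM in the Peril brain, 5.44 and 4.92 FPKM at E13.5, and 3.89 and 4.05 FPKM at E15.5. Sfrp2 was at 17.5 and 15.8 FPKM at E13.5 and 11.1 and 11.2 FPKM at E15.5.

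**Figure D3:**
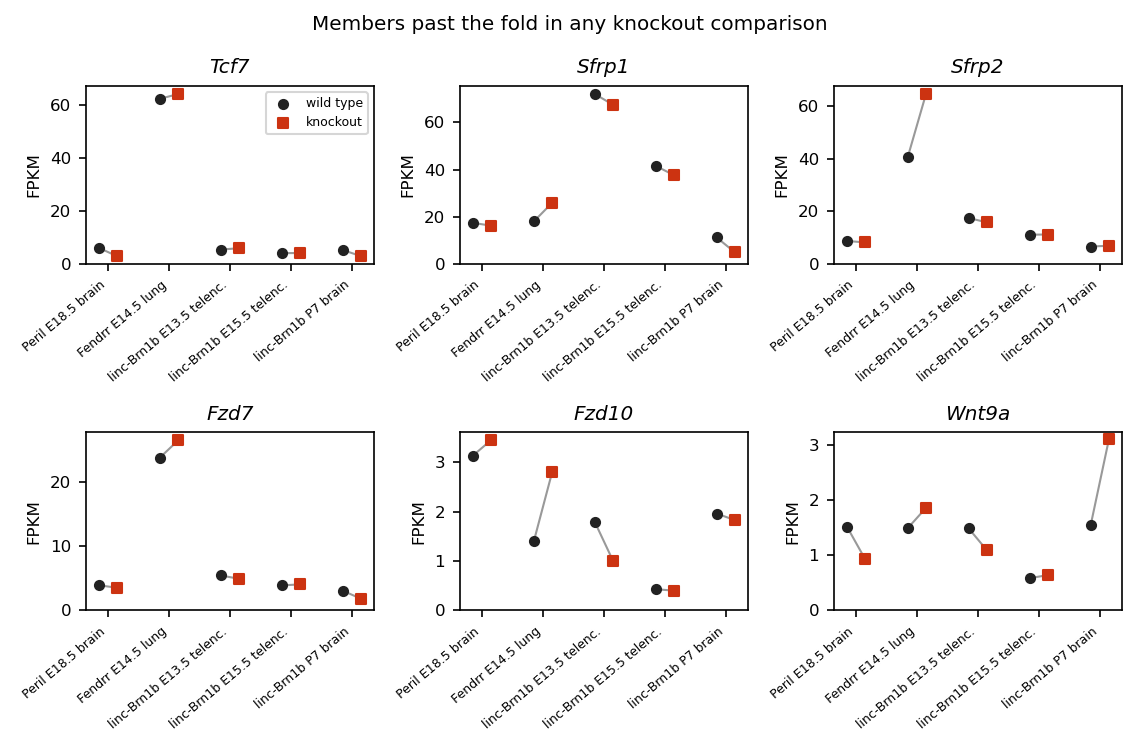
FPKM (linear axes from 0) of the 6 genes past the fold in any comparison, in wild type (circles) and knockout (squares) of each strain and age, 1 pooled value per point. Sfrp2 in lung goes from 40.8 to 64.9 FPKM, and Wnt9a in P7 brain from 1.54 to 3.10 FPKM.

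Genes acting at other steps of the pathway were described from a list of 52, of which 51 were in the tables. In the 5 knockout comparisons between 42 and 45 of them passed the minimum, and 0 were past the fold in any, in either direction, beside 2.6%, 3.03%, 9.87%, 0.592% and 6.62% of all entries in the Peril brain, in lung and in the linc-Brn1b strain at E13.5, E15.5 and P7. Their median differences were 0.03 in the Peril brain, 0.02 in lung, and 0.06, -0.01 and 0.05 in the linc-Brn1b strain at E13.5, E15.5 and P7. Some lay just short of the fold. In lung Rspo2 was at 5.64 FPKM in wild type against 8.365 FPKM in knockout (0.496), with Rspo3 (0.44) and Rspo1 (0.39) also higher and Rspo4 under the minimum. In the Peril brain the target gene Sp5 was at 1.85 and 1.03 FPKM (-0.49), beside Ccnd1 (-0.38), Nkd2 (-0.04) and Myc (0.05). In the linc-Brn1b strain the nearest to the fold were Tle2 (0.47) and Tcf7l2 (-0.42) at E13.5, and Prickle2 (0.42) and Rspo1 (0.42) at P7. Sp5 at P7 was under the minimum, at 1.09 and 0.451 FPKM (-0.52), beside Nkd2 (-0.01), Myc (0.04) and Ccnd1 (0.15). The list held the alternative receptors Ror1, Ror2 and Ryk and the Lgr receptors, the ligand-secretion proteins Porcn and Wls, the Rspondins, the cytoplasmic proteins around beta-catenin, its nuclear partners and the planar polarity genes.

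Within the linc-Brn1b strain, ages were compared in each genotype with a fold of 1 in log2(FPKM + 1), that is a factor of at least 2. The E13.5 and E15.5 groups are both telencephalon. From E13.5 to E15.5 these genes were lower as a group, with 26 of 27 past the minimum below 0 in wild type (median -0.65) and 24 of 25 in knockout (median -0.56), beside medians of 0.01 and -0.03 over all entries. Past the fold were 3 genes in each genotype, all lower. In wild type 1.99% of 13539 entries were lower and 2.15% higher, and in knockout 1.48% of 13569 were lower and 3.23% higher. The genotypes share no samples in these comparisons, but the E13.5 and E15.5 groups of a genotype differed in the Y-linked genes.

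Wnt8b, a ligand of the cortical hem and hippocampal primordium, was past the fold in both genotypes, at 6.50 FPKM at E13.5 and 1.57 FPKM at E15.5 in wild type and at 5.91 and 1.43 FPKM in knockout. Fzd8, a receptor of cortical progenitors, was the other, at 18.4 and 7.76 FPKM in wild type and 18.2 and 7.52 FPKM in knockout. Fzd9 passed in wild type alone (-1.06, against -0.83 in knockout) and Lef1 in knockout alone (-1.14, against -0.93 in wild type), so both were near the fold in each genotype. Wnt7b was the exception in direction, above E13.5 by 0.19 in both genotypes. The summed receptor level was 139 and 82.6 FPKM in wild type and 138 and 81.4 FPKM in knockout. Meningeal genes summed to 32.8 and 3.64 FPKM in wild type and 16.8 and 2.66 FPKM in knockout, the 3 cortical hem and dorsal midline genes to 6.50 and 1.97 FPKM in wild type and 5.36 and 0.926 FPKM in knockout, and the part of these tissues was not tested. Among the other pathway genes 42 passed the minimum in each genotype, of which 1 was higher in both, Prickle1 at 2.75 and 7.28 FPKM in wild type. Lower were 6 in wild type and 5 in knockout. Ror2, Rspo1, Rspo2, Tcf7l1 and Ccnd1 were common to both, with wild type levels of Rspo1 at 7.88 and 2.22 FPKM, Tcf7l1 at 15.4 and 4.27 FPKM and Ccnd1 at 57.1 and 19.3 FPKM.

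P7 was sampled as whole brain and E15.5 as telencephalon, so age and tissue cannot be told apart in their comparison. Telencephalic genes summed to 302 FPKM at E15.5 and 60.9 FPKM at P7 in wild type, and cerebellar genes to 11.1 and 58.0 FPKM. Past the fold in wild type were 4 genes higher and 7 lower of 28, beside 14.22% higher and 12.75% lower of 14152 entries. In knockout 5 were higher and 6 lower of 26, beside 15.72% and 13.47% of 14109 entries. Of these, 4 were higher and 6 lower in both genotypes.

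The 4 higher in both were Wnt4, Fzd10, Dkk3 and Frzb. Wnt4 was at 0.676 FPKM at E15.5 and 5.92 FPKM at P7 in wild type, and at 0.848 and 8.40 FPKM in knockout. Dkk3 was at 7.04 and 30.2 FPKM in wild type and 6.87 and 25.3 FPKM in knockout. Frzb, which binds Wnt ligands through a Frizzled-like domain, was at 0.498 and 4.20 FPKM in wild type and 0.599 and 5.03 FPKM in knockout. Fzd10 was at 0.431 and 1.96 FPKM in wild type and 0.4004 and 1.83 FPKM in knockout. Frzb and Fzd10 were higher at E13.5 than at E15.5, with wild type levels of 1.95 and 1.79 FPKM at E13.5, so that both were lowest at the middle age.

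Lower at P7 in both genotypes were Wnt7b, Fzd1, Fzd2, Fzd8, Lrp5 and Sfrp1. Fzd2 had the lowest difference in wild type, at 13.9 FPKM at E15.5 and 2.06 FPKM at P7 (-2.28), with 13.54 and 1.51 FPKM in knockout (-2.53). Fzd8 was at 7.76 and 1.47 FPKM in wild type and 7.52 and 1.70 FPKM in knockout. Fzd1 was at 12.4 and 3.997 FPKM in wild type and 11.5 and 4.37 FPKM in knockout, and Lrp5 at 5.98 and 2.23 FPKM in wild type and 6.05 and 2.41 FPKM in knockout. Fzd3 and Lrp6 were not past the fold, so that Fzd3 supplied 20.3% of the wild type receptor sum at E15.5 and 30.9% at P7. Sfrp1 was at 41.6 and 11.2 FPKM in wild type (-1.80) and 37.6 and 4.91 FPKM in knockout (-2.71), the lowest difference of the 26 genes in knockout. Wnt9a was past the fold in knockout alone, at 0.641 and 3.10 FPKM (1.32), beside 0.586 and 1.54 FPKM in wild type (0.68), and Wnt7a was past it in wild type alone (-1.10, against -0.93). Sfrp1 and Wnt9a were also past the fold between genotypes at P7, and that comparison uses the same P7 groups.

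**Figure D4:**
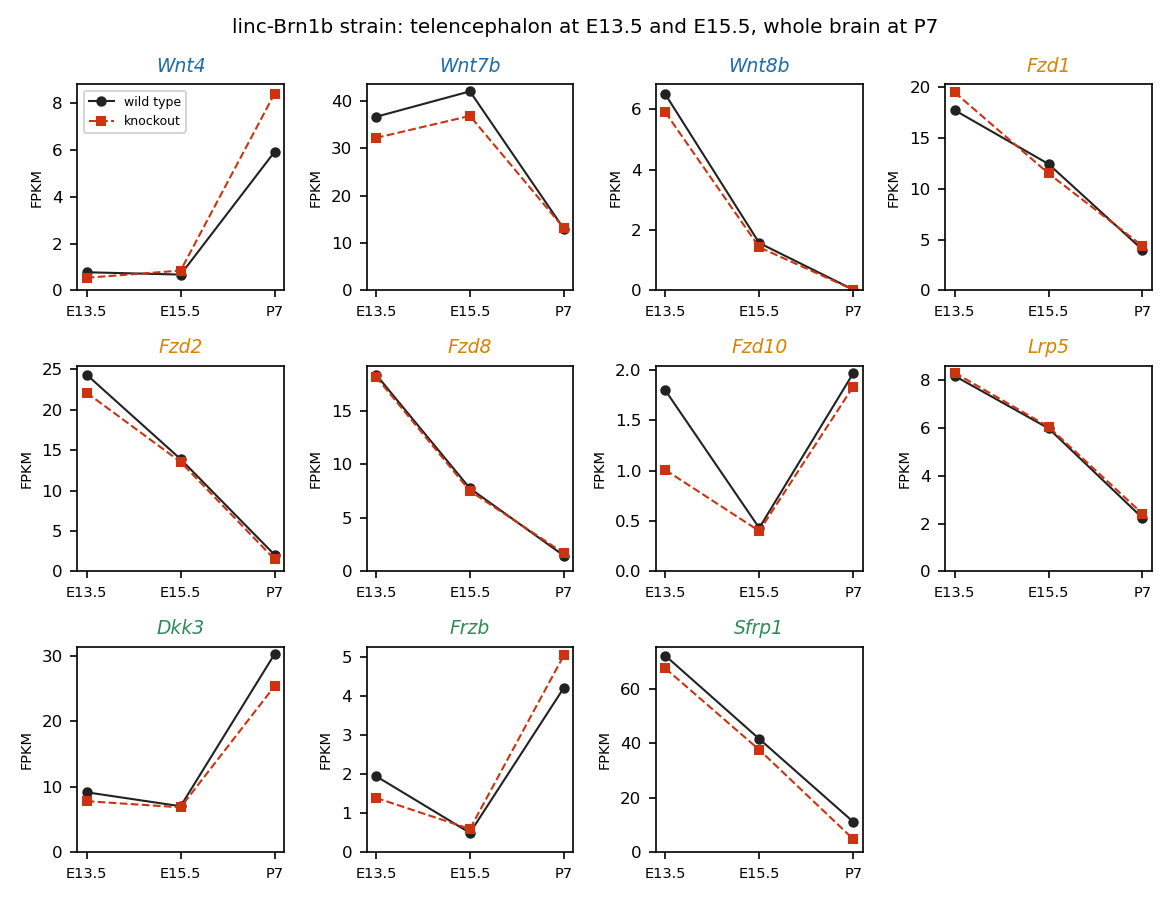
FPKM (linear axes from 0) of the 11 genes past a fold of 1 between the same ages in both linc-Brn1b genotypes, in wild type (circles, solid line) and knockout (squares, dashed line), 1 pooled value per point. P7 is whole brain and the earlier ages are telencephalon. Wnt8b and the Frizzled genes Fzd1, Fzd2 and Fzd8 are lower at each later age, Wnt4 and Dkk3 are highest at P7, and Fzd10 and Frzb are lowest at E15.5.

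Among the other pathway genes, 3 of 42 past the minimum were higher at P7 in each genotype, namely Lgr4, Tcf7l2 and Prickle2. Tcf7l2, a nuclear partner of beta-catenin prominent in thalamic neurons, was at 2.61 FPKM at E15.5 and 21.6 FPKM at P7 in wild type and at 3.49 and 23.8 FPKM in knockout. The number lower was 9 in wild type and 8 in knockout, and included Rspo3 at 11.5 and 2.30 FPKM, Vangl2 at 25.3 and 7.39 FPKM and Celsr1, a planar polarity cadherin of progenitors, at 19.2 and 1.51 FPKM in wild type. The 4 thalamic markers summed to 7.46 and 10.3 FPKM in wild type.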

How the data were processed

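RNA-Seq of 21 libraries in 10 groups was used. The authors aligned paired reads to mm9 with TopHat2 and ran Cufflinks 2.0.2 and Cuffdiff, and deposited 3 tables with 1 FPKM value per group, the replicates pooled by the authors. Columns of values per sample numbered 0. The deposited tables also hold the authors' log2 fold changes, test statistics, p-values and q-values, none of which were used. From the FPKM values, differences of log2(FPKM + 1) were calculated with Python 3.11.15, pandas 2.3.3 and numpy 2.4.6, and counted past a fold of 0.5 between genotypes and 1 between ages among entries with a mean of at least 1 FPKM. Without values per library there was no test, error or interval. Genes were named if past the fold in a knockout comparison, past the age fold in both genotypes, or among the 3 highest of their role, with others given by range or beside these. Pathway genes, marker lists and members were chosen with earlier results of these data known, and Pcp2, Wif1, Fzd6, Wnt2b and others short of the fold were named after their values were seen. Starts in the tables count from 0 and 1 was added. Alternatives were another pseudocount, minimum, fold and centring. A listed marker gene was left out and is not reported here.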

Additional observations from a re-analysis of the deposited data

How the results depend on the processing

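Counts of genes past the fold were recomputed under 5 kinds of alternative. With a pseudocount of 0.1 FPKM in place of 1, the count was 2 in the Peril brain (1 with the pseudocount of 1), 2 in the E13.5 telencephalon (0) and 10 between E13.5 and E15.5 in wild type (3), against 4 in knockout (3). With a minimum mean of 5 FPKM it was 0 in the Peril brain (1), 1 in the P7 brain (4), and 6 and 5 between E15.5 and P7 in wild type and knockout (11 and 11), fewer genes being counted. Centring on the median of all entries gave 2 in the E13.5 telencephalon (0), both lower, namely Fzd10 and Fzd6. A fold of 1 between genotypes left 0 in the Peril brain, 0 in lung (3) and 1 in the P7 brain, which was Sfrp1. A fold of 2 between ages left 0 and 0 from E13.5 to E15.5 (3 and 3), and 2 and 3 from E15.5 to P7. In lung, Sfrp1 lay at the fold itself and was short of it after centring, the count then being 2. Removing the minimum left all 9 counts within 1.5 times. Leaving out single libraries was not possible with 1 value per group. No paired analysis was possible because the tables give 1 pooled value per group and no values per replicate. The unknown depth limits weakly expressed genes most, such as Fzd10 and Wnt9a.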
